A study of Mus musculus with 9 samples.

Results

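The genes for translation initiation factors, the proteins that place the ribosome on an mRNA and start protein synthesis, were followed through a Roquin immunoprecipitation (IP) of RNA. They were taken from the deposited table as every gene whose symbol began with Eif and a digit, without the Argonaute genes (older symbols Eif2c) and the eIF2 kinase genes (Eif2ak). This gave 50 of the 20467 genes listed. The rule used names only and no measured value. All 9 libraries came from RAW264.7, a mouse macrophage-like cell line, and all of its cells had received lipopolysaccharide (LPS, a bacterial cell wall component) at 100 ng/ml for 2 h, so no group was without LPS. In the Roquin IP group, 3 libraries were made from RNA recovered with rabbit polyclonal antibodies and protein A/G beads. In the control IP group, 3 libraries came from beads with no antibody, so RNA held by the antibodies through other proteins cannot be told from RNA held through Roquin. The 3 input libraries held lysate RNA taken before the IP. The design text calls the replicates biological.

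Initiation begins when eIF2, carrying the initiator tRNA and GTP, joins eIF1, eIF1A, eIF3 and eIF5 on the small ribosomal subunit. This complex is brought to the mRNA by the cap-binding complex of eIF4E, the scaffold eIF4G and the RNA helicase eIF4A, which eIF4B and eIF4H stimulate. eIF5B then joins the large subunit, and eIF2B reloads eIF2 with GTP. The 4E-binding proteins hold eIF4E away from eIF4G. In macrophages, LPS is known to raise translation of inflammatory mRNAs through signalling to these factors. Roquin proteins bind stem-loops in the 3' untranslated region (3' UTR) of mRNAs and direct these mRNAs to decay.

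The sequences shown here are matches in initiation factor 3' UTRs to a search pattern for Roquin stem-loops, the subject of the study. The pattern was TTCNNNGAA with a loop of pyrimidine, purine and pyrimidine, on the sense strand only, in the longest annotated 3' UTR of each gene (GENCODE M21, build GRCm38). It was found in 3 of the 48 initiation factor genes tested below (6.25%) and in 568 of 9447 genes with a 3' UTR (6.01%), so the share was near that of all genes. The 3 sites are given 5' to 3' with the matched bases in capitals, Eif1ad at chr19:5370995-5371019 (plus strand), Eif3j at chr2:122055986-122056010 (plus strand) and Eif4b at chr15:102097043-102097067 (plus strand).
Eif1ad: cttcgagcTTCTGTGAActgtgtct
Eif3j: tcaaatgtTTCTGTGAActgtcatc
Eif4b: aaaatatcTTCTATGAAaatgattt
Eif4a1, the one member that passed the test between the IPs in the fit with group alone, did not hold this pattern. A second, separate pattern fixed no stem letters but asked for 5 Watson-Crick pairs around a loop of pyrimidine, purine and any base. A match to the first need not match it. None of the 3 sites above did, because the bases directly beside their capitals do not pair. Eif3j and Eif4b held matches to it elsewhere in the 3' UTR, and Eif1ad held none. The second pattern was found in 14 of 48 members (29.2%) and in 41.5% of all genes. Its single match in Eif4a1 is shown with the loop in capitals, at chr11:69667014-69667026 (minus strand).
Eif4a1: aatggTAGccatt
These matches describe letters and are not shown to be bound. The authors' deposited table gave none of the 50 members a predicted constitutive decay element, their name for the Roquin stem-loop.

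Roquin IP libraries held 3547517 to 12975767 reads, control IP libraries 2929537 to 8466096 and input libraries 1799390 to 2122288. Levels are given as CPM, counts per 1000000 reads of a library size scaled by TMM, a factor that sets the typical gene level across libraries. Depending on the library, 1 CPM equalled 2.02 to 11.65 counts. Macrophage marker genes (8 in the table, such as Cd68 and Csf1r) summed to between 999.3 and 2071 CPM in every library, while markers of T cells, B cells, fibroblasts, epithelium and endothelium summed to at most 1.184 CPM per list. Tnf, the gene of a main inflammatory cytokine, took up 21.85% ± 4.913 (SD, n = 3) of the reads in Roquin IP, while beads alone had 0.2068% and the input 0.3099%. Another single gene, Lars2, took up 18.28% ± 4.931 in Roquin IP, 35.24% ± 6.481 with beads alone and 37.54% ± 4.484 in the input (SD, n = 3 each). Both genes are part of the library sizes behind the read shares.

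As a share of all reads, the initiation factor genes held less in Roquin IP, 0.6129% ± 0.1252, than with beads alone, 1.055% ± 0.198, or in the input, 1.067% ± 0.05877 (SD, n = 3 each). The 3 Roquin IP shares, from 0.5% to 0.7476%, lay below those of the other 6 libraries, and this difference was not tested. On the TMM scale their sums were 8760 ± 563.7, 8457 ± 704.1 and 9117 ± 545.9 CPM, differences of about 1 SD or less. The scale therefore sets whether the summed level of the family appears lower in Roquin IP. With library size alone, the median over all genes of the log2 fold change between the IPs moved from -0.12 to -0.96, and that of the members from -0.21 to -1.06. Relative to the median of all genes, that of the members was at -0.09 on the TMM scale and at -0.10 with library size alone. Fold changes below are on the TMM scale and are best read relative to the median of all genes. Each library pools many cells, so fewer cells with a transcript and fewer copies per cell cannot be told apart.

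Of the 50 members, 48 had enough counts to be tested. Eif4e1b, an oocyte relative of eIF4E, and Eif5a2, the second eIF5A gene, had 0 counts in every library, which allows up to 3 counts, or 0.2574 to 1.485 CPM. Per kilobase of the longest annotated coding transcript, the highest input levels were those of Eif5a, whose product helps ribosomes through difficult peptide bonds, with 423.8 ± 148.3 CPM per kb, and Eif4a1, the main eIF4A helicase, with 336.1 ± 68.34 (SD, n = 3). These neighbours differed by less than their spread. Eif4g2, an eIF4G relative that does not bind the cap-binding protein, followed with 176.5 ± 37.32 CPM per kb, Eif4b with 163.2 ± 53.89 and Eif3a, the largest eIF3 subunit, with 161.1 ± 8.62, again within their spread. At the low end stood Eif2b4, an eIF2B subunit, with a mean of 5.132 CPM per kb, and Eif4ebp2, a 4E-binding protein gene, with 5.697. In Roquin IP Eif4a1 was first, with 715.5 ± 31.22 CPM per kb, and Eif5a was next with 577.7 ± 148.2. In control IP Eif5a was first, with 843.7 ± 228.4, and Eif4a1 was next with 296.4 ± 18.87.

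The comparison of the IPs asked which mRNAs came down with the antibodies beyond those held by beads. Among the initiation factors, 1 gene rose in the fit with group alone. It was Eif4a1, with a log2 fold change of 1.27 ± 0.26 (SE), or 2.41-fold (edgeR quasi-likelihood F test, Benjamini-Hochberg adjusted p = 0.00856). This was 2.08% of the 48 members, against 3.76% of all genes tested, so the family as a whole was not called more often than other genes. No member fell: edgeR called 0 lower, as among all genes (0% of 9567), DESeq2 called 0 lower, and 1 member, Eif2b2, was lower at an unadjusted p under 0.05 (2.13% of all genes). At that unadjusted p, 4 members were higher (Eif3j, Eif4a1, Eif4b and Eif4ebp2), where 7.93% of all genes were. The median of the 48 members was -0.21, beside -0.12 for all genes. Of the members 9 were above 0 and 39 below, and of all 9567 genes 3810 were above 0 and 5757 below. With library size alone 0 members were higher (2.69% of all genes) and 29 lower (60.4%, against 38.6% of all genes). Leaving out control IP 2 left 0 members higher, and no other single library changed that count of 1.

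**Figure D1:**
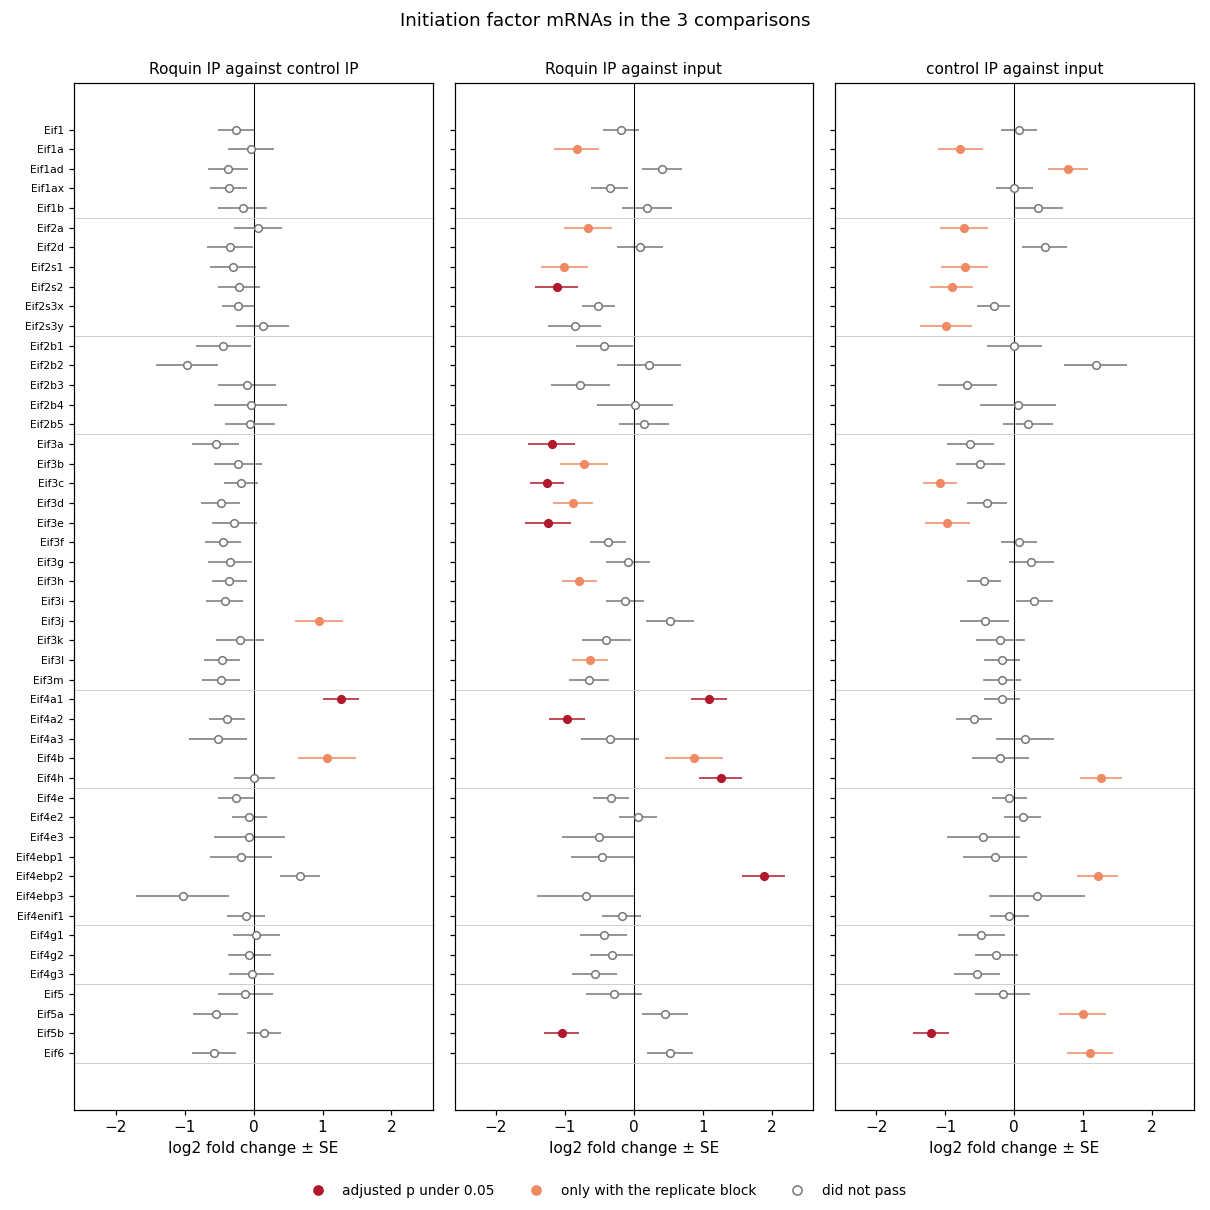
Log2 fold change with its SE (horizontal axis) of the 48 tested initiation factor genes (vertical axis, grouped by role) in 3 panels, 1 for each comparison of 3 against 3 libraries. Dark red points passed an adjusted p under 0.05, orange points passed only with the replicate number in the fit, and open grey points did not pass; Eif4a1 is the only dark red point between the IPs, while 9 stand out between Roquin IP and input, 6 of them below 0.

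Eif4a1 stood at 1278, 1210 and 1320 CPM in the Roquin IP libraries numbered 1 to 3, at 542.4, 487.3 and 547.8 with beads alone, and at 474, 716.5 and 598.1 in the input. Every Roquin IP library was above every other library, while control IP and input overlapped. Libraries with the same number gave ratios between the IPs of 2.36, 2.48 and 2.41, a narrow range. The call was lost without control IP 2 (log2 1.22, adjusted p = 0.0683) and with library size alone (0.44, adjusted p = 0.227). Over its 14 alternatives the adjusted p ran from 1.43e-06 to 0.227. Relative to the median of all genes, Eif4a1 was at 1.39 on the TMM scale and at 1.40 with library size alone. The authors' deposited table gave it a ratio of 2.45 and a p-value of 0.097968, the only member there with a p-value below 1. Other annotated genes have stretches nearly identical to the Eif4a1 transcript (Gm5513, Eif4a-ps4 and AC129773.1) and 3 snoRNA genes lie within it on the same strand, so some of its reads may be assigned with uncertainty.

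The other eIF4A genes did not pass between the IPs. Eif4a2, which encodes a close relative of eIF4A1, had 39.77, 52.75 and 39.41 CPM in Roquin IP and 57.46, 61.23 and 53.71 with beads alone, a log2 fold change of -0.38 (adjusted p = 0.699). All 3 Roquin IP values lay below all 3 control IP values. Eif4a3, whose product belongs to the exon junction complex, had 28.47, 49.6 and 63.27 CPM in Roquin IP and 40.74, 72.19 and 90.52 with beads alone, groups that overlapped (log2 -0.52, adjusted p = 0.75). The difference between Eif4a1 and its relatives was not tested.

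Neither gene of the eIF4A cofactors passed between the IPs without the block. Eif4b, which encodes a stimulator of the helicase, had 1873, 971.8 and 607.4 CPM in Roquin IP, 676.5, 646 and 320.8 with beads alone, and 861.4, 563.3 and 461.9 in the input. The libraries numbered 1 were the highest and those numbered 3 the lowest in all 3 groups, and the groups overlapped. Its log2 fold change between the IPs was 1.07 ± 0.42 (adjusted p = 0.331), and with the replicate number as a block it rose by 0.99 (adjusted p = 0.0122). Eif4h, which encodes the smaller stimulator, had 594.9, 539.4 and 794.3 CPM in Roquin IP and 420.5, 728.9 and 771.9 with beads alone. These groups overlapped, and their log2 difference was 0.01 ± 0.30 (adjusted p = 0.999).

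Eif3j, the gene of a loosely held eIF3 subunit that contacts the mRNA channel, had 88.76, 96.29 and 120.9 CPM in Roquin IP, 34.96, 48.71 and 73.96 with beads alone, and 41.47, 84.87 and 87.63 in the input. Every Roquin IP library was above all 6 others, by a small margin over the highest input. Its log2 fold change between the IPs was 0.95 ± 0.35 (adjusted p = 0.263), and with the block it rose by 1.01 (adjusted p = 0.015). Eif3j and Eif4b are among the 3 members that hold the pattern of the 3 sites printed above. The third, Eif1ad, gave -0.37 ± 0.29 (adjusted p = 0.736). GENCODE lists Eif3j as Eif3j1, beside a nearly identical Eif3j2, and Spg11 overlaps it on the other strand, so its counts may include reads of either.

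With the block, 3 members were higher between the IPs (Eif3j, Eif4a1 and Eif4b; 6.25%, against 5.52% of all genes) and 0 lower (0.115% of all genes). Without overlap between the groups, 3 members were higher (Eif3j, Eif4a1 and Eif4ebp2) where 10.7% of all genes were. Another 7 members (14.6%) were lower without overlap, where 8% of all genes were: Eif2b2, Eif2s3x, Eif3d, Eif3h, Eif3l, Eif3m and Eif4a2. None of these 7 passed the test. The one with the lowest log2 value was Eif2b2, the gene of the eIF2B beta subunit, at 12.56, 16.53 and 15.45 CPM in Roquin IP against 34.96, 29.34 and 23.17 with beads alone (log2 -0.96 ± 0.45, adjusted p = 0.496). In the input Eif2b2 had 3.659, 18.16 and 16.83 CPM, all below every control IP library. Against the input it gave 0.22 in Roquin IP (adjusted p = 0.826) and 1.18 in control IP (0.172).

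**Figure D2:**
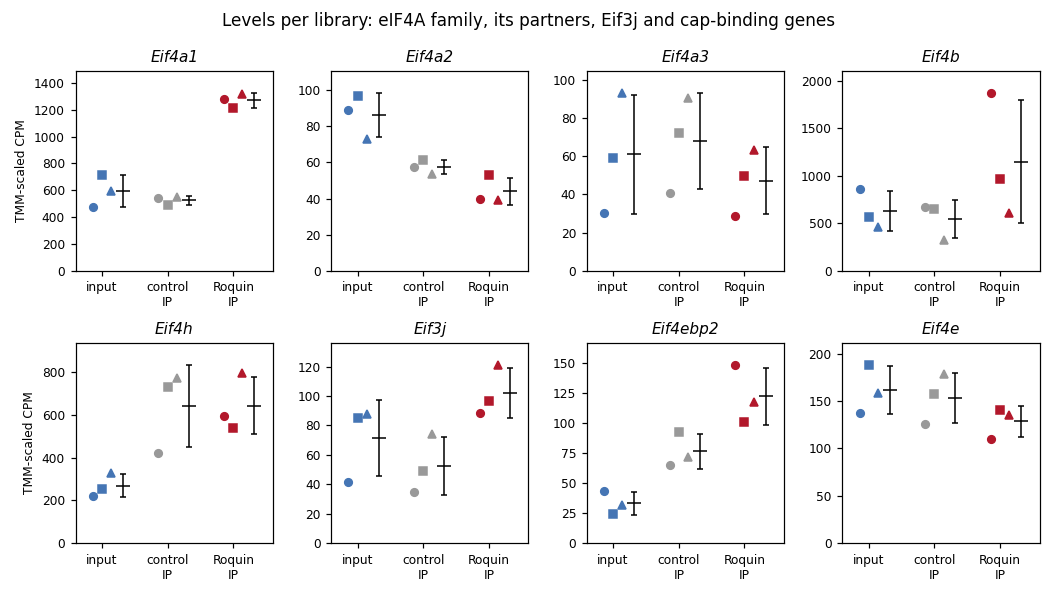
TMM-scaled CPM (vertical axis) of 8 members in the 3 input, 3 control IP and 3 Roquin IP libraries (horizontal axis), where circles, squares and triangles are replicates 1, 2 and 3 and bars are the mean ± SD. The Roquin IP values of Eif4a1 lie between 1210 and 1320, above the other 6 libraries, while Eif4h and Eif4ebp2 are high in both IPs.

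Against the input, Roquin IP showed more members lower than higher: 3 rose (Eif4a1, Eif4ebp2 and Eif4h; 6.25%, against 5.45% of all genes) and 6 fell (Eif2s2, Eif3a, Eif3c, Eif3e, Eif4a2 and Eif5b; 12.5%, against 2.79% of all genes). With the block, 4 rose (Eif4b was added; 8.33%, against 9.99% of all genes) and 13 fell (27.1%, against 8.04%). The added 7 were Eif1a, Eif2a, Eif2s1, Eif3b, Eif3d, Eif3h and Eif3l. Without overlap, 4 members were higher (16.5% of all genes) and 14 lower (29.2%, against 14.4% of all genes). The median of the members was -0.38, beside -0.01 for all genes. With library size alone 1 member was higher (2.71% of all genes) and 28 were lower (58.3%, against 27.8%). These counts also depend on single libraries: the 3 higher became 1 without Roquin IP 1, Roquin IP 3 or input 1, and the 6 lower became 1 without Roquin IP 1, 2 or 3 and 2 without input 1 or 2. This comparison shares its Roquin IP libraries with the one between the IPs and its input libraries with control IP against input.

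The largest rise was that of Eif4ebp2, the gene of a 4E-binding protein, at 147.8, 100.6 and 117.1 CPM in Roquin IP, 65.06, 92.53 and 71.3 with beads alone and 43.09, 24.08 and 31.69 in the input. The 3 groups formed 3 separate steps with no overlap. Roquin IP was 3.69-fold above the input (log2 1.88 ± 0.31, adjusted p = 0.00134), a call kept in all 14 alternatives, with adjusted p from 9.56e-08 to 0.0191. For control IP against input the value was 1.21 ± 0.30 (adjusted p = 0.0585), and it rose by 1.25 with the block (adjusted p = 0.0112) and by 1.31 without control IP 1 (0.045), in a range of 0.00548 to 0.185. Between the IPs the log2 value was 0.67 ± 0.29 (adjusted p = 0.425), and beads alone thus stood between the input and Roquin IP.

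Eif4h had input values of 221.6, 255 and 327.2 CPM, all below the 6 IP libraries, while the IPs overlapped each other. It rose 2.4-fold from input to Roquin IP (log2 1.26 ± 0.31, adjusted p = 0.0216). The value for control IP against input was also 1.26 ± 0.31 (adjusted p = 0.0559), and it rose by 1.24 with the block (adjusted p = 0.0042) and by 1.49 without control IP 1 (0.0284), in a range of 0.00273 to 0.17. The call against input was lost under scaling by library size alone (0.54, adjusted p = 0.254) and when omitting Roquin IP 1 (adjusted p = 0.0558), Roquin IP 3 (0.104), input 1 (0.0846) or input 2 (0.0834). Over 14 alternatives the adjusted p ran from 0.000756 to 0.254.

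Eif4a1 rose 2.13-fold over the input (log2 1.09 ± 0.26, adjusted p = 0.0194), with -0.18 for control IP against input (adjusted p = 0.745). That call was lost under scaling by library size alone (0.34, adjusted p = 0.407) and when omitting Roquin IP 1 (adjusted p = 0.0639), Roquin IP 3 (0.0727), input 1 (0.0760) or input 3 (0.0518). Over 14 alternatives the adjusted p ran from 0.000114 to 0.407. Eif4b gave 0.87 against the input (adjusted p = 0.231), and with the block it rose by 0.77 (adjusted p = 0.0249). Eif4a2 moved the other way from Eif4a1. With beads alone it gave -0.59 against the input (adjusted p = 0.225), and every control IP value lay below every input value. In Roquin IP it fell from 89.03, 96.71 and 72.78 CPM in the input to the values given above (log2 -0.97 ± 0.26, adjusted p = 0.0361). Its call held in 7 of 14 alternatives, with adjusted p from 0.00115 to 0.164, and was lost without any filter (0.0593) and without Roquin IP 1 (0.159), 2 (0.0602) or 3 (0.164), control IP 2 (0.0571), input 1 (0.0793) or input 2 (0.11).

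The eIF3 genes, whose products form the large scaffold of the initiation complex, are the largest role, with 13 of the 48 genes tested. Against the input 3 of the 13 fell (2.79% of all genes did), and 7 of 13 with the block (8.04%). Their median was -0.65 for Roquin IP against the input (1 above 0, 12 below), where all genes had 4733 above 0 and 4834 below. It was -0.35 between the IPs and -0.40 for control IP against input. Eif3c, a core subunit, had 98.81, 134.4 and 114.8 CPM in Roquin IP, 117.4, 147.3 and 129.4 with beads alone, and 288.6, 288.2 and 257.4 in the input. All input libraries were far above the 6 IP libraries, which overlapped each other. Eif3c was 2.39-fold lower in Roquin IP (log2 -1.26 ± 0.25, adjusted p = 0.00697), a call kept in all 14 alternatives (adjusted p 2.32e-06 to 0.0488). In control IP it gave -1.08 (adjusted p = 0.0511), and with the block it fell by 1.09 (adjusted p = 0.00502).

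Eif3a had 394.8, 372.2 and 318.3 CPM in Roquin IP, 872.2, 361.3 and 359.6 with beads alone, and 876.9, 801.7 and 799.1 in the input. Control IP 1 stood with the input libraries and the other two control IPs with the Roquin IPs. Against the input Eif3a fell by 1.19 (SE 0.34, adjusted p = 0.046) in Roquin IP, and this call held in 8 of 14 alternatives (adjusted p 0.00117 to 0.165). It was lost without any 1 of the 3 Roquin IP or 3 input libraries: 0.125, 0.117 and 0.165 without Roquin IP 1, 2 and 3, and 0.11, 0.105 and 0.0923 without input 1, 2 and 3. For control IP against input the value was -0.64 (adjusted p = 0.304), and without control IP 1 it was -1.19 (adjusted p = 0.0429), in a range of 0.0429 to 0.613. Eif3e, which encodes a subunit at the edge of the complex, had 115.1, 89.85 and 72.83 CPM in Roquin IP, 159.3, 83.93 and 94.47 with beads alone and 204.1, 298.8 and 155.5 in the input. It fell by 1.25 (SE 0.33, adjusted p = 0.034), a call kept in 9 of 14 alternatives (0.00116 to 0.151). It was lost without Roquin IP 1 (0.0649), 2 (0.106) or 3 (0.151) and without input 1 (0.069) or 2 (0.143). For control IP against input Eif3e gave -0.97 (adjusted p = 0.131, and 0.0285 with the block).

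**Figure D3:**
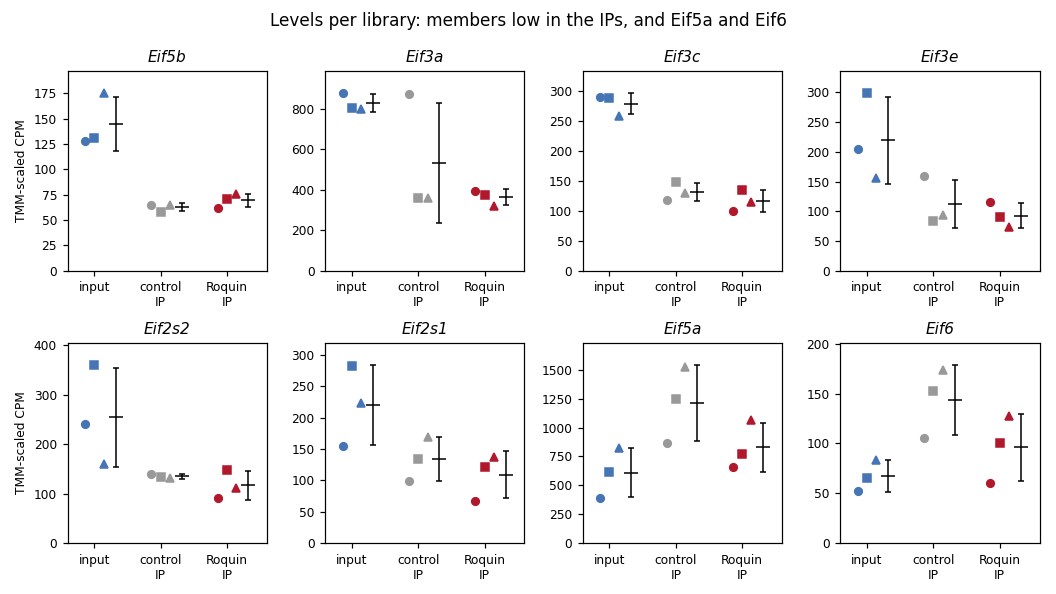
TMM-scaled CPM (vertical axis) of 8 members in input, control IP and Roquin IP libraries (horizontal axis), where circles, squares and triangles are replicates 1, 2 and 3 and bars are the mean ± SD. In Eif5b and Eif3c all 6 IP libraries lie below all 3 inputs, control IP 1 of Eif3a stands at 872.2, and Eif5a and Eif6 are higher in control IP than in the input.

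Of the remaining eIF3 genes, 4 fell against the input with the block but not in the edgeR fit with group alone. Eif3b, a scaffold subunit, gave -0.72 (adjusted p = 0.245, and 0.0203 with the block). Eif3d, a subunit able to bind caps, gave -0.89 (0.0779 and 0.0148), Eif3h -0.79 (0.0722 and 0.0101) and Eif3l -0.64 (0.158 and 0.0475). Eif3f, Eif3g, Eif3i, Eif3k and Eif3m lay between -0.65 and -0.09 and passed in neither fit.

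The genes of eIF2, the tRNA carrier, were grouped with Eif2a and Eif2d. These 6 genes had a median of -0.77 for Roquin IP against the input, -0.72 for control IP against input and -0.21 between the IPs, where none passed. Eif2s2, the beta subunit gene, had 90.85, 148.8 and 111.5 CPM in Roquin IP, 140.5, 133.8 and 131.4 with beads alone and 241.9, 360 and 160.9 in the input. It fell by 1.12 in Roquin IP against the input (SE 0.31, adjusted p = 0.0431), a call kept in 8 of 14 alternatives (0.00154 to 0.187) and lost without Roquin IP 1 (0.187), 2 (0.0548) or 3 (0.148), control IP 2 (0.0634), input 1 (0.0835) or input 2 (0.177). In control IP the value was -0.91 (adjusted p = 0.131, and 0.0363 with the block). Eif2s1, which encodes the alpha subunit that stress kinases phosphorylate, had 66.57, 121.8 and 138 CPM in Roquin IP, 98.81, 134.2 and 168.6 with beads alone and 154.9, 281.8 and 223.8 in the input. The 2 IP groups overlapped and both lay mostly below the input. Its values were -1.01 for Roquin IP against input (adjusted p = 0.0827, and 0.0038 with the block) and -0.72 for control IP (0.248 and 0.0373). For Roquin IP against input it was called in 4 of 14 alternatives (0.0038 to 0.297). These were the block, DESeq2 (0.03), no filter (0.0336) and library size alone (0.00468).

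The gamma subunit has an X-linked gene, Eif2s3x, with -0.22 between the IPs and -0.52 against the input, and a Y-linked gene, Eif2s3y, with 0.13 and -0.86. Neither passed in these comparisons. For control IP against input Eif2s3y gave -0.99 (adjusted p = 0.169), and with the block it fell by 1.03 (adjusted p = 0.0433). Eif2a, an alternative carrier of the initiator tRNA, gave -0.67 in Roquin IP (adjusted p = 0.275, and 0.0376 with the block) and -0.73 in control IP (0.262 and 0.0423), both against input. Eif2d, a factor of ribosome recycling, lay between -0.34 and 0.44. The 5 eIF2B genes, for the exchange factor, had medians of -0.10 between the IPs, 0.01 for Roquin IP and 0.05 for control IP against input, and none passed in any of the 3 comparisons, with or without the block.

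The factors eIF1 and eIF1A guide start codon choice. The 5 genes grouped under them by symbol, Eif1ad included, had medians of -0.26, -0.19 and 0.07 in the same order, and none passed without the block. Eif1a gave -0.83 in Roquin IP against input (adjusted p = 0.152, and 0.0151 with the block) and -0.78 in control IP (0.205 and 0.0274). Eif1, Eif1ax and Eif1b lay between -0.36 and 0.35.

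Eif4e, the gene of the cap-binding protein, had 109.7, 140.7 and 135.3 CPM in Roquin IP, 125.6, 157.3 and 178.2 with beads alone and 137.8, 187.9 and 158.9 in the input. All 3 groups overlapped, with log2 values of -0.26 between the IPs (adjusted p = 0.801), -0.33 for Roquin IP (0.499) and -0.07 for control IP (0.911) against the input. The other 4E-binding proteins did not follow Eif4ebp2. Eif4ebp1 gave -0.18, -0.46 and -0.28 in the same order. Eif4ebp3, at 1.22 to 8.817 CPM in the 9 libraries, gave -1.03 between the IPs (adjusted p = 0.692). The cap-binding relatives Eif4e2 and Eif4e3 and the eIF4E transporter gene Eif4enif1 lay between -0.51 and 0.12.

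The eIF4G genes passed in no comparison. Eif4g1, the main scaffold gene, had 267.5, 286.6 and 465.1 CPM in Roquin IP, 404.4, 230.3 and 354.4 with beads alone and 407.3, 324.9 and 650 in the input. These groups overlapped, with log2 values of 0.04 between the IPs (adjusted p = 0.974), -0.44 for Roquin IP (0.485) and -0.48 for control IP (0.455) against the input. Eif4g2 gave -0.06, -0.32 and -0.26 and Eif4g3 gave -0.03, -0.57 and -0.54 in the same order.

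Among the late-acting factors, Eif5b had 62.38, 70.42 and 75.63 CPM in Roquin IP, 65.06, 57.91 and 64.78 with beads alone and 128.1, 130.7 and 175.3 in the input. Both IPs were at a similar level below every input library. Eif5b was 2.08-fold lower in Roquin IP than in the input (log2 -1.05 ± 0.25, adjusted p = 0.0207). The call held in 10 of 14 alternatives (0.000397 to 0.107) and was lost without Roquin IP 1 (0.107), 2 (0.0729) or 3 (0.0702) or input 3 (0.0736). Rev1 overlaps Eif5b on the other strand. Eif5, which encodes the GTPase activator of eIF2, had 92.11, 148.3 and 241.3 CPM in Roquin IP, 100, 143.4 and 278.9 with beads alone and 192.3, 159.1 and 239.6 in the input. Its groups overlapped, with log2 values of -0.12, -0.29 and -0.17 that did not pass.

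Beads alone against the input asked which mRNAs the procedure recovers without the antibodies. In the edgeR fit with group alone 1 member passed: Eif5b fell by 1.21 (SE 0.26, adjusted p = 0.0429), or 2.31-fold. This was 1 of 48 members (2.08%), against 0.303% of all genes, and the call held in 5 of 14 alternatives (0.000101 to 0.142). It was lost with library size alone (0.0876), which left 0 members higher (0.596% of all genes) and 0 lower (0.105%), and without any single library except control IP 1 (0.068 to 0.142). No member rose in that edgeR fit (0.815% of all genes did). DESeq2, also with group alone, called 4 members higher and 3 lower (405 and 401 of all genes). Those higher included Eif4h (DESeq2 adjusted p = 0.00273), Eif4ebp2 (0.00548) and Eif6 (0.0287). At an unadjusted edgeR p under 0.05, 6 were higher (10.8% of all genes) and 7 lower (9.53% of all genes). With the block, 5 rose (Eif1ad, Eif4ebp2, Eif4h, Eif5a and Eif6; 10.4%, against 6.65% of all genes) and 8 fell (Eif1a, Eif2a, Eif2s1, Eif2s2, Eif2s3y, Eif3c, Eif3e and Eif5b; 16.7%, against 5.78%). Without overlap, 6 were higher (12.2% of all genes) and 7 lower (10.8% of all genes).

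The rises with the block included both genes of the late stage that stood high with beads. Eif5a had 868.3, 1247 and 1522 CPM with beads alone, 393.1, 614.6 and 819.4 in the input and 655.2, 767.9 and 1067 in Roquin IP. Control IP lay above every input library, and Roquin IP overlapped both groups. The log2 value for control IP against input was 0.99 ± 0.34 (adjusted p = 0.125, and 0.00554 with the block). Eif6, whose product keeps the ribosomal subunits apart, had 105.2, 152.4 and 173.2 CPM with beads alone, 52.04, 65.53 and 83.67 in the input and 59.87, 100.1 and 127.7 in Roquin IP. Its value was 1.10 ± 0.33 (adjusted p = 0.0912, and 0.0058 with the block). Between the IPs the values were -0.55 for Eif5a (adjusted p = 0.663) and -0.58 for Eif6 (0.634).

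The GC content of the transcripts moved with these differences. Across the 48 members, Pearson's r between GC content and the log2 fold change was 0.62 for control IP against input (Spearman's rho 0.60), 0.44 for Roquin IP against input (0.45) and -0.19 between the IPs (-0.23). Over 9499 genes r was 0.43, 0.21 and -0.17 in the same order. These are correlations across genes, which are not independent replicates, and the comparisons share libraries. The 6 members that fell in Roquin IP against the input had 40.2% to 49.6% GC, and the 3 that rose 48.1% to 55.5%, beside a median of 50.0% for the members. Transcript length ranked with the log2 fold change between the IPs (rho 0.48 over the members, 0.26 over all genes). The part of GC content and length in the results was not tested.

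**Figure D4:**
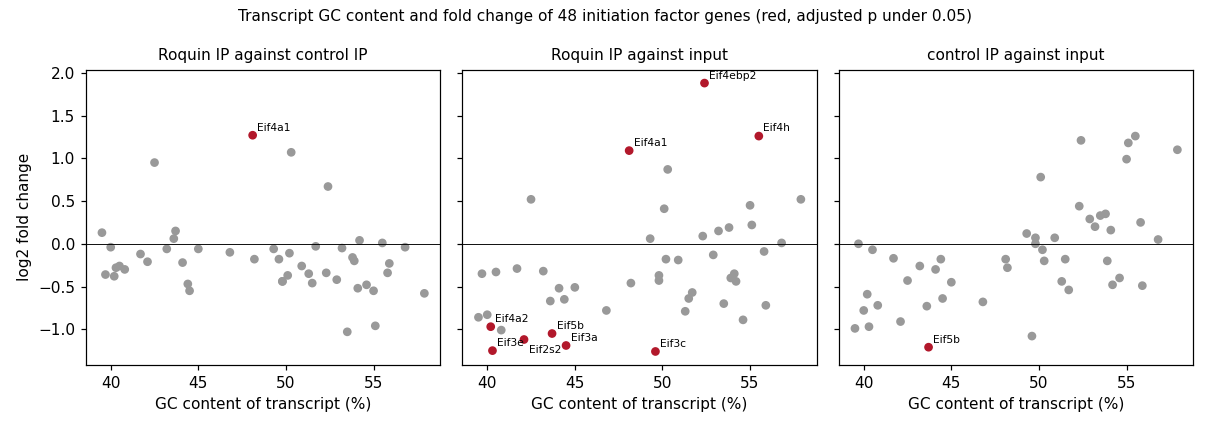
GC content of the longest coding transcript (horizontal axis, percent) against log2 fold change (vertical axis) for the 48 tested members in 3 panels, 1 for each comparison, with red points at an adjusted p under 0.05. Low-GC members lie mostly below 0 against the input in both IPs (r = 0.62 for control IP and 0.44 for Roquin IP), and this slope is not seen between the IPs (r = -0.19).

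Other genes of translation were read from a list of 35, of which 32 were tested. Between the IPs 1 of the 32 rose (Eif2ak3), near the 3.76% of all genes, and 0 fell (0% of all genes), with a median of -0.10 beside -0.12 for all genes. With the block 2 rose (Paip1 was added), where 5.52% of all genes did, and 0 fell (0.115%). Eif2ak3 encodes PERK, the kinase that phosphorylates eIF2 alpha under endoplasmic reticulum stress. It had a mean of 21.41 ± 3.983 CPM in Roquin IP, 5.434 ± 3.772 with beads alone and 3.253 ± 1.471 in the input (SD, n = 3). It was 4.13-fold higher than in control IP (log2 2.05 ± 0.51, adjusted p = 0.035), and the call held in 7 of 14 alternatives (0.00241 to 0.205), with the log2 value at 2.73 without control IP 1. The call was lost under scaling by library size alone (1.27, adjusted p = 0.0585) and when omitting Roquin IP 1 (0.0853), 2 (0.113) or 3 (0.205), control IP 2 (0.197), control IP 3 (0.147) or input 2 (0.0502). Over the input it was 6.68-fold higher (log2 2.74, adjusted p = 0.00812; 13 of 14 alternatives, 0.000108 to 0.0518, the last without input 2), and 2.02 with library size alone. In the input 1 CPM equalled 2.02 to 2.533 counts, so this fold change rests on few input reads.

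Against the input, 2 of these 32 genes rose in Roquin IP (5.45% of all genes did) and 3 fell (2.79%). With the block 6 rose (9.99% of all genes) and 3 fell (8.04%). Paip1, the gene of a partner of the poly(A)-binding protein and eIF4A, rose by 1.08 (adjusted p = 0.0479; 4 of 14 alternatives, 0.0135 to 0.479), a call lost with library size alone (0.35, adjusted p = 0.479), with RLE factors (0.05) and without any single library except control IP 1. Its value between the IPs was 1.06 ± 0.31 (adjusted p = 0.0935). Ddx3x, an RNA helicase gene, fell by 1.37 (adjusted p = 0.013; 12 of 14, 0.000146 to 0.0813), a call lost without Roquin IP 1 (0.0813) or 2 (0.0549). Eif2ak2, the gene of the double-stranded RNA sensor PKR, fell by 1.36 (adjusted p = 0.0209; 11 of 14, 0.00123 to 0.112), a call lost without Roquin IP 1 (0.112) or 2 (0.0833) or input 1 (0.0687). Abce1, a ribosome recycling gene, fell by 0.92 (adjusted p = 0.0476; 6 of 14, 0.00249 to 0.169). Its call was lost without any filter (0.0689) and without any single library except control IP 1 and input 3. These 3 had values between -0.08 and -0.03 between the IPs. For control IP against input none of the 32 passed (0.815% of all genes rose and 0.303% fell), and with the block 2 rose (6.65% of all genes) and 4 fell (5.78%).

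The authors' deposited table gave values for the members too, and 48 had a value for the ratio between the IPs, 9 of them above 1 and 38 below, with a median of 0.875. The highest after Eif4a1 were Eif4b with 2.13, Eif3j with 1.97 and Eif4ebp2 with 1.62, each with a p-value of 1, as for 47 of the 48.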

How the data were processed

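RNA of 9 libraries (3 Roquin IP, 3 control IP, 3 input) was sequenced from TruSeq libraries. The authors deposited raw counts of reads per gene, per the file headers. The deposited table also gives a ratio between the IPs, headed as log2 but linear in its values, and the authors' p-value (adjustment: not given in the sources used here). BWA, CASAVA 1.8.2 and DESeq 1.8.3 are named in the submitters' processing notes. For genome build, annotation, filters and strand the answer is the same, not given in the sources used here, so reads of overlapping genes and near-identical copies cannot be assigned with certainty: 17 members had another gene with at least 95% identity over at least 200 bases, and 16 overlapped a gene on the same strand.

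Counts were fitted with edgeR 4.0.16 in R 4.3.3 (TMM factors, filterByExpr with a minimum count of 10, glmQLFit, glmQLFTest), with group as the only term over all 9 libraries. This left 9567 genes, over which p-values were adjusted (Benjamini-Hochberg, threshold 0.05), with 6 residual degrees of freedom. The fit was tested on simulated data, where it missed most 2-fold changes and found most 4-fold changes between the IPs. A member that did not pass may therefore still differ by about 2-fold. A count of 0 allowed up to 3 counts, a limit on counting error alone, because PCR copies of a molecule are counted as separate reads. Replicates differed by more than sampling noise, so none was counted as a duplicate.

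Libraries with the same replicate number went together: their deviations from the group means correlated at r = 0.152 to 0.58 in all 9 pairs across genes. Between different numbers r ran from -0.433 to -0.0185. Deviations within a group cancel out, which lowers the values of different numbers where the same numbers go together. The labels give the numbers and do not state a pairing, and the main fit did not use them. Calls made without the block therefore ignore this pairing, and calls with the block are given beside them. The alternatives were the replicate number as a block, DESeq2 1.42.0, DESeq2-type (RLE) size factors, library size alone, no filter, and leaving out each library in turn.

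Lengths, GC content and 3' UTRs came from GENCODE M21 (GRCm38), with near-identical genes found by BLAST 2.17.0. Of the 50 members, 49 matched by symbol and 1 by a synonym. Members with values are those that passed in any comparison, the 3 highest and 3 lowest in each, the best known member of each role, and those not overlapping between the IPs as a count. Others are given by role. The members and lists were chosen with earlier results of these data known.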

Additional observations from a re-analysis of the deposited data

How the results depend on the processing

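With library size alone the counts of members between the IPs went from 1 to 0 higher and from 0 to 29 lower, and for Roquin IP against input from 3 to 1 higher and from 6 to 28 lower, while the count lower in control IP went from 1 to 0. That scaling moved the medians of all genes to -0.96, -0.76 and 0.11. The block gave 3 members higher between the IPs, 4 higher and 13 lower for Roquin IP against input, and 5 higher and 8 lower for control IP against input, and changed no other call of a member. DESeq2 gave 9 lower for Roquin IP against input (542 of all genes). For control IP against input it gave 4 higher and 3 lower (405 and 401 of all genes). No filter gave 3 higher and 2 lower for control IP (335 and 229 of all genes), and RLE factors gave 2 lower there (41 of all genes). Leaving out 1 library gave 0 to 1 higher and 0 lower between the IPs, 1 to 3 higher and 1 to 8 lower for Roquin IP against input, and 0 to 2 higher and 0 to 2 lower for control IP. Over all genes these ranges were 276 to 378 and 0 to 3, 298 to 679 and 30 to 452, and 0 to 188 and 0 to 88. The cause of these changes was not tested. At 2.02 to 2.533 counts per CPM in the input, members of low level rest on few reads there.

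Of 882 single-gene values under alternatives, 733 kept direction and side of the threshold, 80 lost and 41 gained a call, and 28 changed sign. With library size alone the changed values were, between the IPs, Eif2s3y -0.67, Eif4ebp2 -0.16, Eif4g1 -0.75, Eif4h -0.83 and Eif5b -0.68, against the input Eif2b2 -0.54, Eif3j -0.22 and Eif6 -0.20, and in control IP Eif4e 0.02. Without a filter Eif4h was 0.00 between the IPs. Leaving out 1 library gave, between the IPs, Eif2s3y -0.10 to 0.58, Eif3a -0.77 to 0.00, Eif3e -0.46 to 0.05, Eif4g1 -0.25 to 0.22, Eif4h -0.22 to 0.16 and Eif5 -0.53 to 0.41, against the input Eif2b2 -0.22 to 0.57, and in control IP Eif4b -0.42 to 0.10, Eif4e -0.19 to 0.06, Eif4ebp3 -0.13 to 0.68 and Eif5 -0.69 to 0.11. None of the values that changed sign was called. All genes higher and lower numbered 360 and 0 between the IPs, 521 and 267 for Roquin IP and 78 and 29 for control IP against input. Library size alone gave 257 and 3694, 259 and 2659, and 57 and 10; the block 528 and 11, 956 and 769, and 636 and 553; DESeq2 475 and 6, 712 and 542, and 405 and 401; no filter 460 and 21, 684 and 416, and 335 and 229.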
